A study of Mus musculus with 18 samples.

Results

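The epidermal differentiation complex is a cluster of genes that keratinocytes switch on as they turn into dead, flattened cornified cells. Its members were taken as every symbol of the Lce, Sprr and S100a families, the loricrin, involucrin and fused S100 genes (Lor, Ivl, Flg, Flg2, Rptn, Hrnr, Crnn, Tchh and Tchhl1), Crct1 and Nccrp1. This gave 56 of the 33394 symbols in the tables for embryonic day 17 (E17) and postnatal day 5 (P5). Of them, 54 were listed at E17 and 37 at P5, with 35 at both stages. On the mm10 assembly 55 members lie on chromosome 3 between positions 90511034 and 93564643, from S100a1 to S100a10, a span of 3.05 Mb. Nccrp1 lies apart on chromosome 7 (28543596 to 28547254, minus strand).

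The libraries came from the epithelium of mouse molar tooth germs, peeled from the mesenchyme with dispase. Mice labelled DKO carried null genotypes for both Hmgn1 and Hmgn2 (Hmgn1-/-; Hmgn2-/-), and WT mice were the wild-type reference. The proteins HMGN1 and HMGN2 sit on nucleosomes and keep chromatin open. The groups used here were DKO at E17, WT at E17, DKO at P5 and WT at P5, with 3 libraries each. The labels do not name the allele design, the strain or the sex, or say whether a library was 1 animal or a pool, so a p-value here reflects only how far libraries scatter, which may be partly technical.

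During cornification the cell builds a protein shell, the cornified envelope, beneath its membrane. Transglutaminases cross-link loricrin, involucrin, the small proline-rich (SPRR) proteins and the late cornified envelope (LCE) proteins into it, and fused S100 proteins such as filaggrin, repetin and trichohyalin join keratin filaments to the shell. The S100a genes at both ends of the cluster code for small calcium-binding proteins that many cell types make. Enamel-forming dental epithelium does not cornify, while the oral epithelium that covers a tooth germ is stratified and, in mice, keratinized.

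The start regions of Lor, Lce3f, Rptn and Tchh are shown because these members passed the test at E17 with any 1 library left out, and because Lor and Tchh are also the envelope and fused S100 genes tested at P5. The windows are RefSeq sequence on GRCm38.p6, read 5′ to 3′ on the gene's strand, from 250 bases before the start to 50 after it, at chr3:92083093-92083392 (minus), chr3:92991967-92992266 (plus), chr3:93393449-93393748 (plus) and chr3:93442080-93442379 (plus). Capitals mark matches on either strand to 4 motifs, with N for any base. The motifs are TGANTCA (a loose form of the AP-1 motif), TATAAA (the core promoter box), CCACCC (a box for Krüppel-like factors) and AACNGGTT (the motif of Grainyhead-like factors).
Lor: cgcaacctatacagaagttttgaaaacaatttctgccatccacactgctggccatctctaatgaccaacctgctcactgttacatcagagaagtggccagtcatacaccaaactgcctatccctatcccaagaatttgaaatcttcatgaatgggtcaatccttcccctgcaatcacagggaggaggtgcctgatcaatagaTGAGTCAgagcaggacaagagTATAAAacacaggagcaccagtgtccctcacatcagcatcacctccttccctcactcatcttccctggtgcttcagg
Lce3f: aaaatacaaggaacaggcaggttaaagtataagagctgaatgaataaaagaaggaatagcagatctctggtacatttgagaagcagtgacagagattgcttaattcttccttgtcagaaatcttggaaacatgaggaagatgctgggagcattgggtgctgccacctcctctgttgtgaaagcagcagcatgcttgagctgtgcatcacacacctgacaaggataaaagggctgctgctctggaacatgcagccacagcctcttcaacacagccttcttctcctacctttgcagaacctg
Rptn: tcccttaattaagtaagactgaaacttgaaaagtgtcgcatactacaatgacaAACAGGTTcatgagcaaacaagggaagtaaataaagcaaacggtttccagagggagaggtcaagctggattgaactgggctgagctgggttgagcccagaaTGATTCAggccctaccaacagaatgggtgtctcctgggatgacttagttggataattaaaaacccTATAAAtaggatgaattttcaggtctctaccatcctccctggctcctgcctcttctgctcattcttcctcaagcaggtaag
Tchh: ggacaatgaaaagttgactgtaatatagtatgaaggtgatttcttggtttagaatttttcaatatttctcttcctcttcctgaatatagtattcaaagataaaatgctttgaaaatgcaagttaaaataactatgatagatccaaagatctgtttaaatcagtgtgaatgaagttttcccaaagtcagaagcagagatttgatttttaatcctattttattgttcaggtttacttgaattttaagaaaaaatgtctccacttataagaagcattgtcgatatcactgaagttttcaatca
The Lor window holds an AP-1 match (TGAGTCA) and a match to the core promoter box. The Rptn window holds both, with TGATTCA as its AP-1 match, and a Grainyhead-like match. No match to the 4 motifs is present in the Lce3f or Tchh window. The 48 members with a RefSeq window had 52 windows, and a member was counted if any of its windows matched. Of these 48 members, 15 held TGANTCA, against 7.81% of all 32851 windows, and 21 held TATAAA, against 13.6%. The shares are of windows, while the counts are of members. CCACCC was found in 16 members, against 31.5% of all windows, and AACNGGTT in 3, against 2.09%. Among the 12 members with a window that rose at E17, 3 held TGANTCA (Crnn, Lor and Rptn) and 6 held TATAAA. These are counts of letters and not of factor binding.

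Levels are RPKM (reads scaled to transcript length and to the mapped reads of the library), summed over the transcripts of a symbol. A gene was tested if at least 3 of the 6 libraries of its stage had 1 RPKM or more, and the genotypes were compared on log2(RPKM + 1) with limma. A member is said to have risen or fallen only where its adjusted p was under 0.05 in the same direction both on the deposited values and after upper-quartile scaling of each library. Both were required because the median log2 fold change (DKO over WT) of all genes was 0.25 at E17 and -0.25 at P5 on the deposited values, and 0.00 and -0.06 after scaling. Fold changes on this scale understate the change of genes near 0. The libraries held 27.9 to 41.6 M mapped reads at E17 and 16.8 to 30.9 M at P5, as estimated from the steps of the low values. Hmgn2 was at 0.839 to 0.975 RPKM in DKO libraries, against 320.0 to 354 in WT libraries at E17, and at 5.44 to 10.4 against 166 to 183 at P5. Hmgn1 was at 86.2 to 92.9 against 123 to 133 at E17, and at 69.8 to 72.6 against 179 to 189.6 at P5. The part of each gene that was deleted is not given in the sources used here.

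At E17 loricrin, Crct1, 4 Lce3 genes and 3 fused S100 genes rose in DKO dental epithelium, while 1 of the 4 Sprr genes tested and 3 of the 12 S100a genes tested did so. Of the 26 members tested, 14 rose, 0 fell and 12 did not pass in both scalings, while 6.61% of all genes tested rose and 3.07% fell. The 14 were Lor, Crct1, Lce3a, Lce3c, Lce3e, Lce3f, Sprr2a2, Rptn, Crnn, Tchh, Nccrp1, S100a3, S100a4 and S100a7a. On the deposited values alone 24 of the 26 passed upward, beside 56.3% of all genes. Every DKO library lay above every WT library for 22 of the 26, and for 60.9% of all genes tested. Only DKO libraries reached 1 RPKM for 8 of the 26 members (Lce3a, Lce3c, Lce3e, Lce3f, Rptn, Crnn, Nccrp1 and S100a7a), so these entered the test through the genotype in which they were high, and all 8 are among the 14. Of the other 18, which reached 1 RPKM in libraries of both genotypes, 6 rose (Lor, Crct1, Sprr2a2, Tchh, S100a3 and S100a4), beside 6.1% of all such genes.

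Lor encodes loricrin, the most abundant protein of the epidermal envelope (chr 3, 92080271 to 92083142, minus strand; promoter shown above). It was at 135, 38.0 and 119.6 RPKM in DKO replicates 1, 2 and 3, against 10.04, 6.11 and 8.81 RPKM in the WT replicates. Every DKO library lay above every WT library, and DKO replicate 2 was well below the other 2 DKO libraries. The means were 97.6 ± 52.1 RPKM in DKO and 8.32 ± 2.01 RPKM in WT (SD, n = 3 each), which is 3.23 ± 0.41 as a log2 fold change (SE, adjusted p = 0.00105; 2.96 after scaling, adjusted p = 0.00695). Ivl, the gene of involucrin, an early envelope precursor, stayed below the filter with a highest value of 0.0346 RPKM, in DKO replicate 1.

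Crct1, a small cysteine-rich gene next to the Lce genes (chr 3, 93014205 to 93015687, minus strand), was at 119.5, 24.8 and 103 RPKM in DKO and at 7.78, 1.92 and 5.28 RPKM in WT. Its means were 82.5 ± 50.7 and 4.99 ± 2.94 RPKM (SD, n = 3 each); the log2 fold change was 3.66 ± 0.57 (adjusted p = 0.00194; 3.40 after scaling, adjusted p = 0.0136). The lowest DKO library was again replicate 2, and it still exceeded the highest WT library.

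LCE proteins are added to the envelope late, and those of the LCE3 group are known from human skin to appear in wounds and psoriasis. Lce3f (chr 3, 92992226 to 92993426, plus strand) was at 54.6, 6.83 and 46.9 RPKM in DKO and at 0.209, 0.0578 and 0.281 RPKM in WT. In reads this is about 1002, 140 and 1192 in DKO and 5, 1 and 5 in WT, so the WT level rests on few reads. The log2 fold change of Lce3f was 4.55 ± 0.61 on the deposited values (adjusted p = 0.00130; 4.39 after scaling), and 6.62 with a pseudocount of 0.1 in place of 1, so its size depends on the pseudocount. Lce3e had 32.2, 4.55 and 27.3 RPKM in DKO, against 0.422, 0.175 and 0.425 in WT (3.70 ± 0.56, adjusted p = 0.00179). Its libraries stood in the same order within DKO as those of Lce3f. Lce3a had 31.7, 5.43 and 27.6 RPKM in DKO and was listed at 0 in every WT library (adjusted p = 0.000885). Lce3c had 9.02, 1.13 and 7.06 RPKM in DKO and was also listed at 0 in WT (adjusted p = 0.00346). In all 4 genes DKO replicate 2 was the lowest DKO library and lay above every WT library.

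The remaining Lce members stayed below the filter at E17. Lce3b had 4.97, 0.212 and 3.59 RPKM in DKO, and Lce3d had 1.18, 0 and 0.988, and both were listed at 0 in every WT library. The 12 Lce1 genes, which are among the LCE genes of normal epidermis, reached at most 0.837 RPKM (Lce1a2, DKO replicate 1). Their summed level was 2.64, 1.51 and 2.61 RPKM in DKO and 0.0354, 0.0905 and 0 RPKM in WT. Over the 28 members below the filter, 13 had every DKO library above every WT library and 0 had the reverse. The shares of all genes below the filter with a value above 0 were 7.81% and 6.05%. A total of 17 members were listed at 0 in all WT libraries, 13 of them Lce genes, and 2 members in all DKO libraries. The share of all genes listed at 0 in this way was not counted. Several of the 17 held few reads in DKO as well, such as Lce1e with about 2, 0 and 1.

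**Figure D1:**
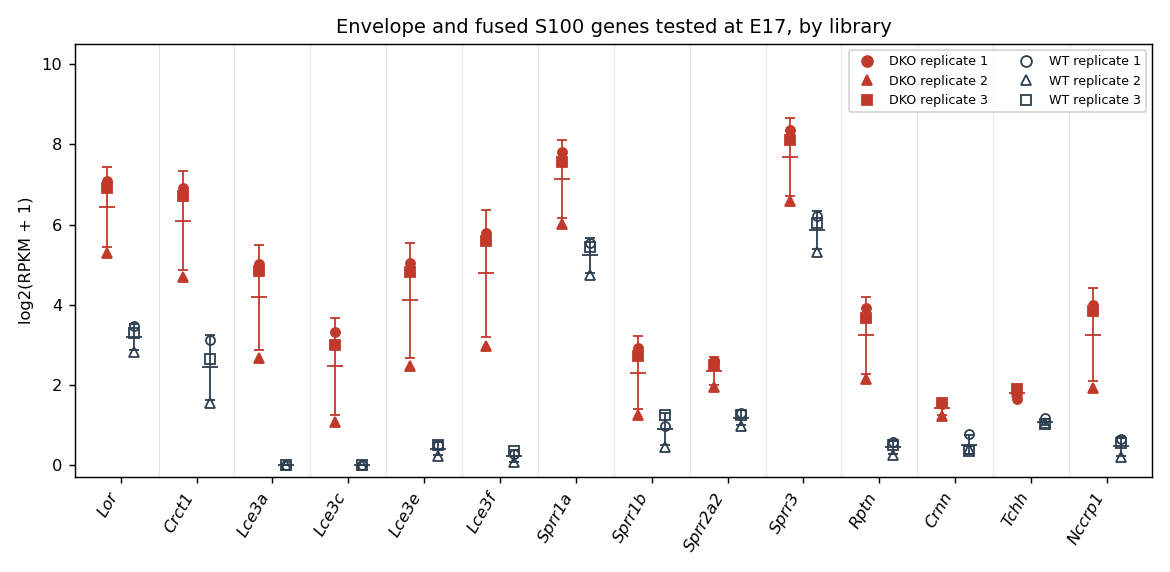
Level of the 14 tested members outside the S100a family at E17, as log2(RPKM + 1), in DKO (filled, left) and WT (open, right) libraries, with a marker shape for each replicate. Horizontal ticks with bars are the mean ± SD of 3 libraries, and DKO replicate 2 (triangle) is the lowest DKO library for every gene but Tchh.

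SPRR proteins cross-bridge the envelope and are abundant in oral and other stratified epithelia. Sprr3 was the most abundant of them at E17, with 329, 94.99 and 276 RPKM in DKO and 73.5, 39.2 and 65.2 RPKM in WT. The genotypes did not overlap, but after scaling Sprr3 missed the threshold (log2 fold change 1.82 ± 0.42, adjusted p = 0.00678; 1.53 after scaling, adjusted p = 0.0655). Sprr1a, at 224, 63.6 and 189 RPKM in DKO and 45.3, 25.7 and 42.6 RPKM in WT, missed it as well (1.89 ± 0.42; 1.61 after scaling, adjusted p = 0.0569), as did Sprr1b (1.40 ± 0.39; adjusted p = 0.0942 after scaling). Without DKO replicate 2 all 3 passed in both scalings. Sprr2a2 rose, with 5.10, 2.87 and 4.65 RPKM in DKO, against 1.49, 0.965 and 1.40 in WT (1.17 ± 0.17, adjusted p = 0.00159). Its value is uncertain, because Sprr2a1 overlaps it on the same strand and the Sprr2a copies are nearly identical, so that the authors' counting could split their reads. Below the filter, Sprr2k had 2.30, 0.281 and 1.28 RPKM in DKO, against 0, 0 and 0.0562 in WT. The other 7 Sprr members (Sprr2a1, Sprr2a3, Sprr2f, Sprr2g, Sprr2h, Sprr2i and Sprr2j-ps) reached at most 0.701 RPKM, in Sprr2i.

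Fused S100 proteins carry calcium-binding domains on a long repeat stretch and bind keratin filaments or the envelope. Rptn encodes repetin, an envelope precursor (chr 3, 93393699 to 93399442, plus strand). Its levels were 14.1, 3.43 and 11.7 RPKM in DKO and 0.501, 0.204 and 0.414 RPKM in WT, about 1754, 476 and 2014 reads against 81, 24 and 48 (log2 fold change 2.79 ± 0.38, adjusted p = 0.00133). Crnn encodes cornulin, known from human esophageal and oral epithelium, and had 1.90, 1.34 and 1.94 RPKM in DKO and 0.731, 0.329 and 0.286 in WT (0.92 ± 0.14, adjusted p = 0.00186). With its highest transcript in place of the sum (mean 1.03 RPKM in DKO) Crnn did not pass the filter and was not tested. Tchh encodes trichohyalin, a protein of the hair follicle inner root sheath and of tongue papillae (chr 3, 93442330 to 93449077, plus strand). It had 2.15, 2.57 and 2.73 RPKM in DKO and 1.26, 1.07 and 1.05 in WT (0.71 ± 0.09, adjusted p = 0.00120). Here DKO replicate 2 lay between the other 2 DKO libraries, unlike for the other 13 tested members outside the S100a family.

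Flg, the gene of profilaggrin, the source of filaggrin, stayed below the filter at 0.702, 0.347 and 0.768 RPKM in DKO and 0.0683, 0.0460 and 0.122 in WT. Hrnr (hornerin) did so at 0.535, 0.171 and 0.512 against 0.0240, 0.0297 and 0.0167. Flg2 reached at most 0.0256 RPKM, and Tchhl1 at most 0.0124, both in WT replicate 1. Nccrp1, an F-box family gene and the member outside the cluster, had 15.1, 2.81 and 13.3 RPKM in DKO and 0.586, 0.161 and 0.467 in WT (log2 fold change 2.78 ± 0.46, adjusted p = 0.00227).

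The 3 DKO libraries were not alike. The level in replicate 2 over the mean of replicates 1 and 3 was 0.135 to 0.183 for the 4 tested Lce3 genes, 0.197 for Nccrp1, 0.222 for Crct1, 0.229 to 0.588 for the Sprr genes and 0.299 for Lor. Over all genes tested the median of this ratio was 1.05, with 0.813 and 1.25 as the 5th and 95th percentiles. Replicate 2 was under 0.5 of that mean for 11 of the 14 tested members outside the S100a family, and for 1.33% of all genes. DKO replicate 1 was above 3 and 3 above 2 for 12 of these 14, and for 7.40% of all genes. In WT, replicate 2 was the lowest library for 10 of the 14 and for 30.5% of all genes. It was not the lowest for Crnn and Tchh, and Lce3a and Lce3c were listed at 0 in every WT library. Where WT was above 0, the WT ratios ran from 0.236 (Lce3f) to 0.922 (Tchh). The labels give nothing that sets these libraries apart.

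**Figure D2:**
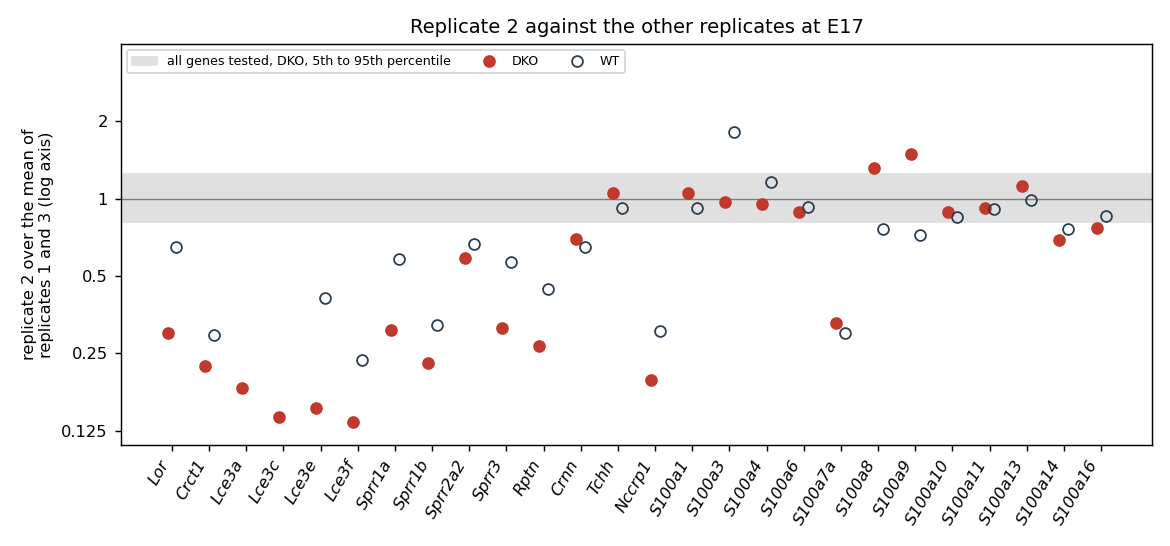
Ratio of replicate 2 to the mean of replicates 1 and 3 at E17 for each of the 26 tested members, in DKO (filled) and WT (open), on a log axis; Lce3a and Lce3c have no WT ratio because WT is listed at 0. The grey band is the 5th to 95th percentile over all genes tested in DKO (0.813 to 1.25), and 11 of the 14 members outside the S100a family lie under 0.5 in DKO.

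Leaving out a library changed which members passed. Lor, Lce3a, Lce3e, Lce3f, Rptn and Tchh passed with any 1 of the 6 E17 libraries left out. Without DKO replicate 3, or without WT replicate 3, these were the 6 members left of 14. Without DKO replicate 2 the count was 16, with Sprr1a, Sprr1b, Sprr3 and S100a6 gained and S100a3 and S100a4 lost, and the log2 fold change of Lor was 3.80 and that of Crct1 4.37. With no filter on low values 2 members passed, Tchh and Lce1i, of which 1 was among the 14.

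In their order along chromosome 3, the S100a genes at the end of the cluster with the lower coordinates (S100a1 to S100a9) had log2 fold changes of 0.12 to 1.74, and S100a10 and S100a11 at its far end 0.34 and 0.29. Between them, the 13 tested envelope and fused S100 genes on chromosome 3 had 0.71 to 4.55. These ranges overlap, and a difference between families was not tested. Of 59 other annotated genes within the span, 24 were in the E17 table and 2 were tested. Pglyrp3, an antibacterial peptidoglycan recognition protein that sits in the cluster, rose (2.28, 1.70 and 1.80 RPKM in DKO and 0.602, 0.702 and 1.00 in WT; log2 fold change 0.73, adjusted p = 0.00207), and Gm4202 did not pass (0.13). Kprp, a keratinocyte proline-rich protein, was below the filter at 2.52, 0.252 and 2.12 RPKM in DKO and listed at 0 in WT; it was chosen after its values were seen.

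**Figure D3:**
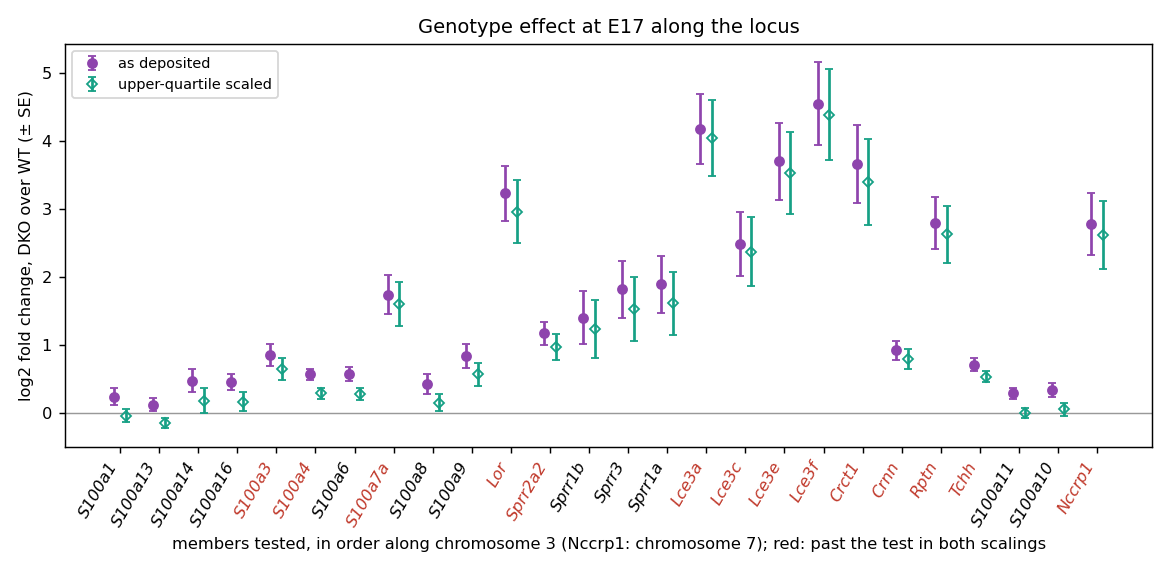
Log2 fold change of DKO over WT at E17 (± SE, n = 3 libraries each) for the 26 tested members in their order along chromosome 3, with Nccrp1 of chromosome 7 last. Circles are the deposited values and diamonds the upper-quartile scaled values; after scaling the S100a genes lie between -0.15 and 0.64 except S100a7a (1.60), and the Lce3 genes reach 4.39.

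Most S100a genes were abundant in both genotypes at E17, and 9 of the 12 tested did not pass in both scalings. S100a11, whose protein is cross-linked into envelopes but is made in many tissues, was the highest of them at 391, 367 and 404 RPKM in DKO and 335.5, 298 and 319 in WT. Its log2 fold change of 0.29 ± 0.08 on the deposited values (adjusted p = 0.0152) became 0.00 after scaling (adjusted p = 0.979). S100a10, S100a13, S100a14, S100a16 and S100a1 had 0.12 to 0.47 on the deposited values and -0.15 to 0.18 after scaling, and none of the 5 passed in both scalings. S100a6 had 0.57 ± 0.10 and 0.28 after scaling (adjusted p = 0.0853). S100a2 stayed below the filter, with at most 0.358 RPKM.

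Of the S100a genes 3 rose. S100a7a, the mouse gene related to human psoriasin, had 5.20, 1.59 and 4.50 RPKM in DKO and 0.641, 0.138 and 0.280 in WT (log2 fold change 1.74 ± 0.29, adjusted p = 0.00242). Like the envelope genes, it was lowest in DKO replicate 2 (ratio 0.327). S100a4, a motility-associated protein also made by mesenchymal and immune cells, had 35.9, 35.5 and 38.4 RPKM in DKO and 24.8, 26.9 and 21.7 in WT (0.57 ± 0.08; 0.29 after scaling, adjusted p = 0.0430). S100a3, a hair cuticle protein, had 3.28, 3.86 and 4.64 RPKM in DKO and 1.41, 2.52 and 1.37 in WT (0.85 ± 0.16; adjusted p = 0.0379 after scaling), and is uncertain because its annotated span includes S100a2. Both calls were close to the threshold. Each was lost with any 1 library left out but WT replicate 2 (adjusted p after scaling 0.0513 to 0.140 for S100a4 and 0.0504 to 0.132 for S100a3) and with the highest transcript in place of the sum (0.0749 and 0.101). That of S100a4 was also lost without the variance trend (0.0582) and with the replicate number as a block (0.0718). Neither S100a3 nor S100a4 showed the low DKO replicate 2 (ratios 0.974 and 0.957).

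S100a8 and S100a9 form calprotectin, which neutrophils and stressed keratinocytes both make. S100a9 had 17.5, 28.2 and 20.1 RPKM in DKO and 13.9, 9.28 and 11.9 in WT (0.84 ± 0.18; 0.57 after scaling, adjusted p = 0.0598), and S100a8 had 12.8, 18.8 and 15.7 against 13.6, 9.52 and 11.3 (0.42 ± 0.15; adjusted p = 0.473 after scaling). For both genes DKO replicate 2 was the highest of the DKO libraries, the reverse of the envelope genes. Of 15 genes of neutrophils and myeloid cells, 9 were tested at E17, and 2 rose (Ltf and Retnlg) and 0 fell, beside 6.61% of all genes that rose. Ltf was lowest in DKO replicate 2 (ratio 0.273), like the envelope genes, and Retnlg was not (1.18). The summed level of the 15 was 180.2 to 204.8 RPKM in DKO and 131.7 to 164.7 in WT. Most of it was Mmp9 (104.6 to 122.9 and 65.3 to 99.8) and Lyz2 (50.7 to 61.4 and 47.5 to 56.0), and neither passed in both scalings. The granule genes Elane and Mpo, which were chosen after their values were seen, reached at most 0.273 and 0.421 RPKM. The part of such cells in the S100a8 and S100a9 levels was not tested.

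Part of the other genes of cornification rose in DKO at E17 as well. The counts below stand beside 6.61% of all genes tested that rose and 3.07% that fell. Their medians stand beside 0.25 for all genes on the deposited values and 0.00 after scaling. Of 16 envelope scaffold and cross-linking genes 15 were tested, and 6 rose and 0 fell, with a median log2 fold change of 0.62 (0.33 after scaling). They include Tgm3, an envelope transglutaminase (9.36, 6.61 and 9.34 RPKM in DKO and 3.05, 2.48 and 2.74 in WT; 1.32 ± 0.12, adjusted p = 0.000304). Cdsn, the corneodesmosome protein, had 22.6, 11.2 and 20.4 RPKM in DKO and 3.91, 2.68 and 3.59 in WT (2.07 ± 0.22, adjusted p = 0.000524). Sbsn (1.21 ± 0.17) and the desmosomal cadherin Dsc1 (0.95 ± 0.12) also rose. Only DKO libraries reached 1 RPKM for Dsc1 (WT at most 0.728), so it entered the test through the genotype in which it was high. Of 17 genes of proteases, inhibitors and barrier lipids 9 were tested, and 5 rose and 0 fell (median 0.94, 0.69 after scaling). Among them the desquamation proteases Klk5 (1.12 ± 0.16) and Klk7 (1.76 ± 0.25), the fatty acid elongase Elovl4 (0.94 ± 0.15) and the membrane protease St14 (0.54 ± 0.08) had the smallest p. Klk5 and Klk7 also entered the test through DKO libraries alone (WT at most 0.920 and 0.132 RPKM).

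Of 13 suprabasal and stress keratins 10 were tested, and 6 rose and 0 fell (median 0.88, 0.60 after scaling). Krt16, a stress keratin, had 58.5, 45.6 and 59.2 RPKM in DKO and 20.0, 20.3 and 17.5 in WT (1.44 ± 0.11, adjusted p = 0.000119). Krt6b (2.02), Krt78 (1.84 ± 0.30) and Krt80 (1.09 ± 0.14) rose too. Krt78 entered the test through DKO libraries alone, the genotype in which it was high (WT at most 0.731 RPKM). Of 16 regulators of cornification 15 were tested, and 6 rose and 0 fell (median 0.56, 0.27 after scaling). Trp63, the master factor of stratified epithelia, had 33.6, 37.6 and 34.6 RPKM in DKO and 20.4, 19.1 and 21.7 in WT (0.76 ± 0.07, adjusted p = 0.000328). Ovol1 (0.61 ± 0.08), Zfp750 (0.58 ± 0.08) and Maf (0.97 ± 0.09), which act in late keratinocyte differentiation, rose as well. Grhl3 and Klf4, chosen after their values were seen, did not pass (0.21 and 0.04).

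Markers of other tissues differed between the genotypes too. The oral mucosa keratins Krt13 and Krt4, chosen after their values were seen, were abundant at E17. Krt13 had 2297, 1188 and 2106 RPKM in DKO and 1697, 1145 and 1474 in WT (log2 fold change 0.33, adjusted p = 0.255), and Krt4 had 1004, 475 and 920.5 RPKM in DKO and 536, 369 and 468 in WT (0.75; adjusted p = 0.323 after scaling). Both were lowest in replicate 2 of each genotype, as were most envelope genes. Among the basal and dental epithelium markers Epcam, Sp6 and Shh rose (0.77 to 1.79) and Ambn fell, and for none of these 4 was DKO replicate 2 the lowest DKO library. Of 11 mesenchyme markers 4 fell (Col1a1, Col1a2, Postn and Prrx1) and 0 rose, beside 3.07% of all genes tested that fell. Their summed level was 2751 to 2939 RPKM in DKO and 4425 to 4818 in WT. Most of this gap lay in Col1a1 (781 to 1019 RPKM in DKO and 1840 to 2110 in WT) and Col1a2 (584 to 697 and 1215 to 1255). The markers that did not pass had log2 fold changes of -0.11 to 0.24 (-0.39 to -0.05 after scaling). Of 6 inner root sheath markers 1 was tested and did not pass (Krt73, 0.64), with a summed level of 2.83 to 3.78 RPKM in DKO and 1.19 to 2.05 in WT, and the other 5 were below the filter. Of these, Padi3, a peptidylarginine deiminase, had 0.953, 1.07 and 1.09 RPKM in DKO, against 0.475, 0.399 and 0.373 in WT, without overlap. Krt28 reached 0.276 RPKM and overlapped between the genotypes, and Krt25, Krt27 and Krt71 reached at most 0.115. The 8 macrophage and 4 glia markers held 0 calls. The part of oral epithelium or of mesenchyme in the levels of the members was not tested, and in such bulk samples a larger number of cornifying cells and more RNA per cell cannot be told apart.

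At P5 most envelope genes were at or near 0 RPKM in both genotypes. Of the 37 members listed, 12 were tested, namely 10 S100a genes, Lor and Tchh. Tchh rose, 4 members fell (Lor, S100a6, S100a11 and S100a14) and 7 did not pass in both scalings, while 7.35% of all genes tested rose and 30.8% fell. The share of members called, 5 of 12, lies beside 38.1% of all genes called in either direction. Of these 5 calls 3 were lost with median-of-ratios scaling in place of upper-quartile scaling. All 11 Lce genes, all 4 Sprr genes, Crct1, Nccrp1 and Rptn were below the filter, with a highest value of 0.7502 RPKM (Sprr1a, WT replicate 2). Sprr1a had 0.196, 0.301 and 0.164 RPKM in DKO, against 0.244, 0.7502 and 0.270 in WT. Lce3f was at 0.0623, 0 and 0 RPKM in DKO and 0, 0.0598 and 0 in WT, and Crct1 at 0.0539, 0 and 0.0451 against 0, 0 and 0.0744. For both genes each genotype had libraries listed at 0, and the genotypes overlapped. Lce3a was at 0.0703, 0 and 0 RPKM in DKO and 0, 0.0675 and 0.0972 in WT, and Nccrp1 at 0, 0 and 0.0238 against 0.0356, 0 and 0.0394. S100a5 and Lce6a, listed at P5 alone, reached at most 0.0748 and 0.0468 RPKM. Krt13 (0.397 to 0.646 RPKM in DKO and 0.121 to 7.56 in WT) and Krt4 (0 to 0.364 and 0.0452 to 0.695) were low as well. Levels at E17 and P5 come from tables with different annotations that were normalized apart, so they stand side by side without a test.

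Lor fell at P5, at 1.26, 1.00 and 0.962 RPKM in DKO and 1.71, 1.52 and 1.77 RPKM in WT (log2 fold change -0.36 ± 0.09, adjusted p = 0.00442; -0.24 after scaling, adjusted p = 0.0469). The groups did not overlap, yet both were near the filter and the call was lost with any library but DKO replicate 1 left out (adjusted p after scaling 0.0510 to 0.156). Tchh had 21.4, 22.5 and 24.4 RPKM in DKO and 15.2, 15.98 and 14.4 in WT (0.55 ± 0.07, adjusted p = 7.84e-05; 0.77 after scaling), and it was the highest member outside the S100a family at P5. The summed level of the inner root sheath markers at P5 was 8.001 to 8.63 RPKM in DKO and 7.96 to 10.52 in WT, and 0 of the 3 tested passed in both scalings (Krt28, -0.26; Krt73, 0.05; Padi3, -0.12).

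Among the S100a genes at P5, S100a11 had 290.3, 291 and 309.9 RPKM in DKO and 420.5, 379.6 and 369.9 in WT (-0.39 ± 0.06, adjusted p = 0.000333; -0.17 after scaling). S100a14 had 27.4, 27.2 and 28.2 RPKM in DKO and 44.0, 34.5 and 38.8 in WT (-0.48 ± 0.08, adjusted p = 0.000448; -0.26 after scaling). S100a6, calcyclin, had 44.0, 47.2 and 52.6 RPKM in DKO and 78.1, 58.2 and 71.7 in WT (-0.52 ± 0.10, adjusted p = 0.00121; -0.30 after scaling). These 3 and Lor had every DKO library below every WT library, as had 61.8% of all genes tested at P5. Without DKO replicate 1 the P5 count of calls was 3, without DKO replicate 2 it was 2, and without WT replicate 1 or 3 it was 3; Tchh and S100a14 passed each time. Below the filter Crnn, S100a3 and S100a7a had every DKO library below every WT library, as had 20.2% of such genes. S100a8 and S100a9 overlapped between the genotypes (-0.13 and 0.00).

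**Figure D4:**
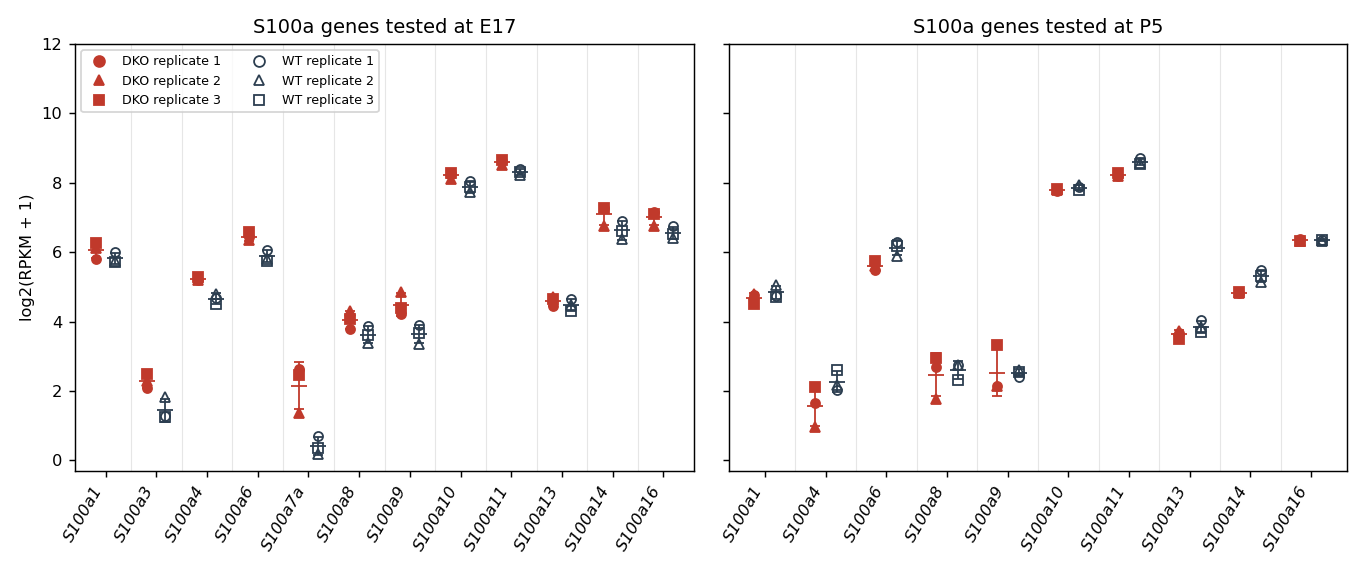
Level of the S100a genes tested at E17 (left, 12 genes) and at P5 (right, 10 genes), as log2(RPKM + 1), in DKO (filled, left of each pair) and WT (open) libraries, with mean ± SD of 3 libraries. S100a11 and S100a10 are the most abundant at both stages, and S100a7a at E17 shows the widest gap between the genotypes.

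Of the other cornification genes at P5, few passed, while 38.1% of all genes tested did so in either direction. Of 11 scaffold genes tested 1 rose (Cst6, a cystatin of the envelope, 0.65 ± 0.16) and 1 fell (Tgm1, the main keratinocyte transglutaminase, -0.83 ± 0.09, adjusted p = 4.72e-05). Of 4 protease and lipid genes Elovl4 fell (-0.46), of 6 keratins Krt80 fell (-1.07 ± 0.15), and among the regulators Cebpb fell (-0.53). Of 11 mesenchyme markers 6 fell and 0 rose, with a summed level of 895 to 1282 RPKM in DKO and 2078 to 2271 in WT. Of 8 macrophage markers 3 fell and 0 rose. Among all genes tested at P5 30.8% fell and 7.35% rose, so the macrophage count lies near the general share. Of the 9 basal and dental epithelium markers 2 rose and 2 fell at P5. The enamel genes Ambn (34520, 34640 and 31390 RPKM in DKO and 15160, 18090 and 15040 in WT) and Amelx rose. Shh, a signal of the dental epithelium (44.2, 46.4 and 47.7 RPKM in DKO and 138, 86.5 and 115 in WT; -1.25 ± 0.13, adjusted p = 3.19e-05), and the epithelial adhesion gene Epcam (-0.50; -0.28 after scaling) fell, while both had risen at E17.

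The genotype effect itself was compared between stages for the 12 members tested at both. It differed for 3 of them, all with the E17 effect above the P5 effect, while 30.1% of all genes tested at both stages differed and 27.5% did so in that direction. For Lor the E17 effect minus the P5 effect was 3.60 ± 0.42 (adjusted p = 2.58e-05; 3.20 after scaling, adjusted p = 0.000739). For S100a6 it was 1.08 ± 0.14 (0.57 after scaling, adjusted p = 0.00251), and for S100a4 1.26 ± 0.26 (0.82 after scaling, adjusted p = 0.0359). For Tchh it was 0.16 ± 0.12 (adjusted p = 0.216), with rises at both stages. The Lce3 genes, Crct1, Rptn and Nccrp1 could not be compared this way because they were below the filter at P5.

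**Figure D5:**
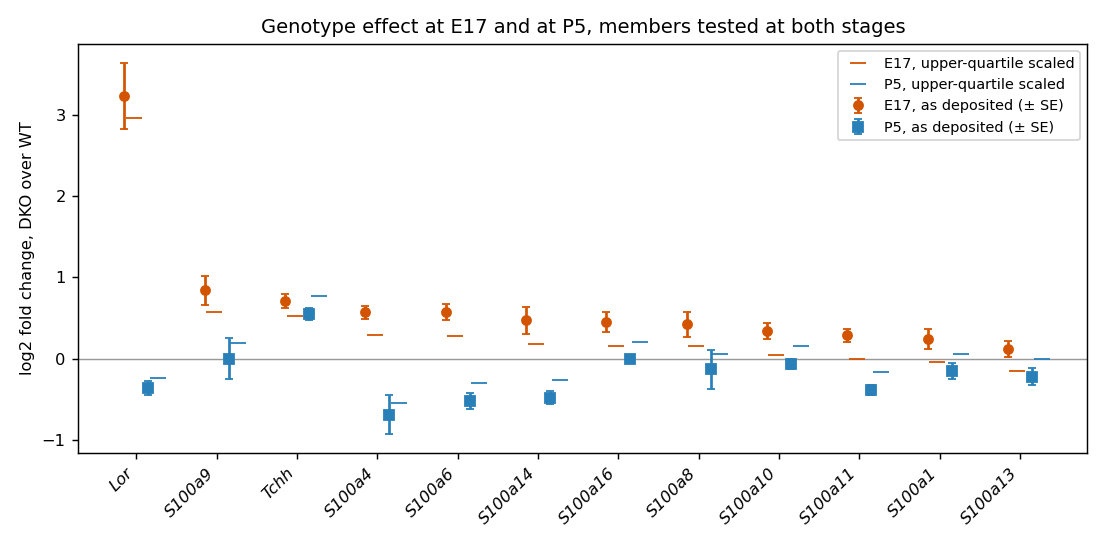
Log2 fold change of DKO over WT at E17 (circles) and at P5 (squares) for the 12 members tested at both stages (± SE, n = 3 libraries per group), with the upper-quartile scaled value as a short line beside each. Lor stands apart at 3.23 at E17 and -0.36 at P5, and Tchh is above 0 at both stages.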

How the data were processed

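Per the labels' protocols, total RNA (1 µg, RIN above 7) was depleted of ribosomal RNA and made into NEBNext Ultra II libraries. Per the submitters' processing notes, the authors used Partek (version not given) and mm10. The sources used here name no aligner, annotation release or strand setting. Transcripts have Ensembl/GENCODE names at E17 and RefSeq names at P5. Each deposited value is the RPKM of a transcript, which the authors scaled to length and mapped reads. The unit was inferred from the values, since no source names it. Per the file headers, each library had 65953495 to 99967427 deposited alignments at E17 and 39209676 to 72660832 at P5. The P0 table held 0 members and was not used.

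RPKM were summed per symbol, and a gene was kept at a stage if 3 or more of the 6 libraries had 1 RPKM or more (13728 genes at E17, 11423 at P5). Log2(RPKM + 1) was compared with limma 3.58.1 (empirical Bayes with trend, two-sided) in R 4.3.3, and p-values were adjusted by the Benjamini-Hochberg method over all genes of a stage. A call needed an adjusted p under 0.05 in the same direction before and after upper-quartile scaling. Stage effects were compared by dividing the difference between log2 fold changes by its standard error (Satterthwaite degrees of freedom), with p adjusted over 11049 symbols. The fits were tested on simulated data. Positions are from GENCODE M21. Every member may be named, with values by library for Lor, Lce3f, Crct1, each member called and the highest of each family, and of each list up to 4 genes with the smallest p. Promoter windows replaced the planned protein sequences. The members and lists were chosen with earlier results of these data known. Alternatives were other scalings, filters, pseudocount, variance model, fold minimum, a replicate block and each library left out, and the highest transcript in place of the sum for calls was added after the data were seen. A few genes of the lists are not reported here.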

Additional observations from a re-analysis of the deposited data

Results flagged for a closer look

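The genotype effect differed between E17 and P5 for 3 members, by a test of the difference of the log2 fold changes (DKO over WT) on the deposited values and after upper-quartile scaling. For Lor the E17 effect minus the P5 effect was 3.60, with an effect of 3.23 at E17 and -0.36 at P5. For S100a4 the difference was 1.26, with 0.57 at E17 and -0.69 at P5, and for S100a6 it was 1.08, with 0.57 at E17 and -0.52 at P5. At P5 the S100a4 effect did not pass after scaling (adjusted p = 0.127). Of all genes tested at both stages 27.5% differed in the same direction.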

How the results depend on the processing

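With 14 members called at E17, the count was 24 on the deposited values alone, 2 with no filter on low values and 9 when a log2 fold change of 1 or more was also required, and 6 to 16 with a library left out. For the related genes of the lists (34 called of 91 tested at E17) these counts were 59, 11 and 13, and 17 to 38. With the highest transcript in place of the sum, 11 of 25 members tested and 27 of 88 related genes were called at E17. With 5 members called at P5, the count was 2 with median-of-ratios scaling, 0 when a log2 fold change of 1 or more was also required and 3 with the highest transcript, and 2 to 5 with a library left out. For the related genes at P5 (21 of 66) it was 41 on the deposited values alone and 4 at a log2 fold change of at least 1. With 3 members whose effect differed between stages, it was 10 on the deposited values alone, 15 of 35 with no filter (2 shared) and 1 at a difference of at least 1 on the log2 scale, and 2 to 4 with a library left out. The cause was not tested. After scaling the sign turned for S100a1 (-0.04), S100a11 (0.00) and S100a13 (-0.15) at E17 and for S100a1 (0.06), S100a8 (0.06), S100a10 (0.16) and S100a16 (0.21) at P5. S100a9 at P5 was -0.02 with a pseudocount of 0.1 and -0.08 with the highest transcript. With a P5 library left out, S100a9 ranged over -0.39 to 0.20, S100a8 over -0.36 to 0.22 and S100a16 over -0.04 to 0.00. The replicate numbers gave no clear pairing of the libraries. Correlations of same-numbered deviations were -0.022, 0.22 and -0.021 at E17 and -0.222, -0.072 and 0.044 at P5. Those of differently numbered libraries were -0.188 to 0.212 at E17 and -0.161 to 0.249 at P5. The value for replicate 2 was the highest at E17, so a link between the replicate 2 libraries cannot be told from these values. With the number as a block 16 members passed at E17 (13 shared), 5 at P5 (4 shared) and 4 between stages, and 36 and 22 of the related genes. WT levels of the Lce3 genes rest on 0 to 10 reads per library at E17, so the size of their fold depends on the pseudocount. With 0.1 in place of 1 the log2 fold change of Lce3a went from 4.18 to 7.41. That of Lce3c went from 2.48 to 5.43.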
